A study of Schizosaccharomyces pombe with 72 samples.

Results

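RNA-sequencing of fission yeast deprived of nitrogen for 24 hr (T0-N) was compared between strains 92 and 93, on one side, and strains 86 and 97, on the other. Each strain code had 3 libraries, so 6 libraries stood against 6, and these 12 were part of a series of 72. The count table held 7014 gene rows, of which 5960 passed a filter on low counts and were tested. Genes were kept when each strain of a side differed from each strain of the other, with the same direction in the 4 strain pairs and an adjusted p below 0.05 in every pair. The rule kept 84 genes, 30 higher and 54 lower in strains 92 and 93. Because this rule used the T0-N libraries, the fold changes and p-values of these genes at T0-N describe the choice, and only libraries of other growth states test them again.

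The study asked how the cohesin loader Mis4 and TORC1, through its subunit Mip1, act together on gene expression. It used wild-type cells, a thermosensitive *mis4* mutant, a *mip1* mutant and the double mutant. The labels give the strains as numbers (92, 93, 86 and 97), and neither the labels nor the methods pair these numbers with genotypes, so no side can be called mutant or wild-type here. Per the strain list, the cells of these experiments carry the M mating type at a *mat1* locus that cannot switch (*mat1-M-smt0*), so that all 4 strains lack a mating partner. Cells grew in EMM2 at 25°C before they were moved to EMM2-N, the same medium without nitrogen. For comparison, the same 4 strains were sequenced as cycling cells in rich medium (YES) at 25°C (V25) and 36.5°C (V36.5), and after 4 more days without nitrogen at 25°C (T4D25) or 36.5°C (T4D36.5), with 3 libraries per strain in each. The T4D25 and T4D36.5 cultures came from the T0-N cultures and are not independent of them, whereas the V25 and V36.5 cultures were separate. Per the study's methods the 3 libraries of a strain are biological triplicates. The p-values measure the spread left between them after removing the shift shared by libraries with the same replicate number.

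Fission yeast that runs out of nitrogen stops dividing in G1 and either mates or, without a partner, becomes quiescent. The transcription factor Ste11 switches on the mating genes, and its activity is held down in nutrient-rich cells by TORC1, by the protein kinase A pathway and by the kinase Pat1. M cells then secrete the lipid-modified pheromone M-factor, encoded by *mfm1*, *mfm2* and *mfm3* and exported by Mam1, and sense P-factor from the other mating type through the receptor Mam2. The signal passes through the G protein Gpa1 and Ras1 to a MAP kinase cascade ending in Spk1.

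The starved state and mating type of the libraries were checked with defining markers. Over the 12 T0-N libraries, *mfm1* had a median of 7920 CPM (counts scaled to a common library size with TMM), against 0.392 CPM in V25. The starvation gene *isp6* stood at 2000 and 86.4 CPM in the same states, and *mei2* at 1720 and 17.2 CPM. The P-cell genes were low in both states, *map2* at 9.95 and 6.85 CPM and *map3* at 9.45 and 8.65 CPM. Of the starvation markers, the ammonium transporter gene *amt2* went the other way, with 96.4 CPM in T0-N against 203 CPM in V25. Counts on genes ranged from 2180751 to 6569486 in the 12 libraries, and the 4 libraries of replicate 3 were the shallowest (at most 2618951). Spike-in RNAs took 2.9 to 11% of the gene counts in strains 92 and 93 and 2.72 to 3.98% in strains 86 and 97. Library sizes taken from the spike-ins would move the median of all genes to -0.83 on the log2 scale (92 and 93 over 86 and 97), with 16 genes called higher and 5210 lower, so that all changes below are relative to the bulk of the genes. With these sizes 73 of the 84 genes described below kept their sign, while the higher genes *isu1*, *agp3*, *tgp1*, SPAC1039.07c, *dus1*, *caf5*, SPAC6G9.01c, SPBC3B8.06, SPNCRNA.1116, SPNCRNA.1236 and the pseudogene SPAC977.13c turned negative (-0.01 for *dus1* to -0.38 for *tgp1*). The sources used here do not describe how the spike-ins were added.

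Across all genes, 712 of 5960 (11.9%) differed between the sides at T0-N (edgeR quasi-likelihood F test, Benjamini-Hochberg adjusted p below 0.05), with 377 higher (6.33%) and 335 lower (5.62%) in strains 92 and 93. Strain 92 differed from strain 86 in 395 genes (6.63%) and from strain 97 in 524 (8.79%), and strain 93 differed from strain 86 in 247 (4.14%) and from strain 97 in 160 (2.68%). Within the sides, strains 93 and 92 differed in 9 genes (0.151%) and strains 97 and 86 in 55 (0.923%). The 84 kept genes were 1.41% of those tested (0.503% higher, 0.906% lower). Their number rested on single replicate numbers and on the block: 77, 34 and 33 genes were kept without replicate 1, 2 and 3, of which 53, 31 and 26 were among the 84, and 4 were kept in a fit without the replicate block. The direction was the same for all 84 in each of these fits, but they reuse the libraries that chose the genes and so do not test it. The absolute log2 fold changes of the 84 genes ran from 0.41 to 4.15 with a median of 0.88, and 31 of 84 changed at least 2-fold (1.49% of all genes did so with an adjusted p below 0.05). In 55 of them the 6 libraries of strains 92 and 93 did not overlap the 6 of strains 86 and 97, which held for 2.11% of all genes. None of the 84 differed between strains 93 and 92, and 3 differed between strains 97 and 86. In 50 of the 84, strain 97 lay nearer to strains 92 and 93 than strain 86 did. By class, 68 of the 84 were protein-coding, 18 higher and 50 lower.

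**Figure D1:**
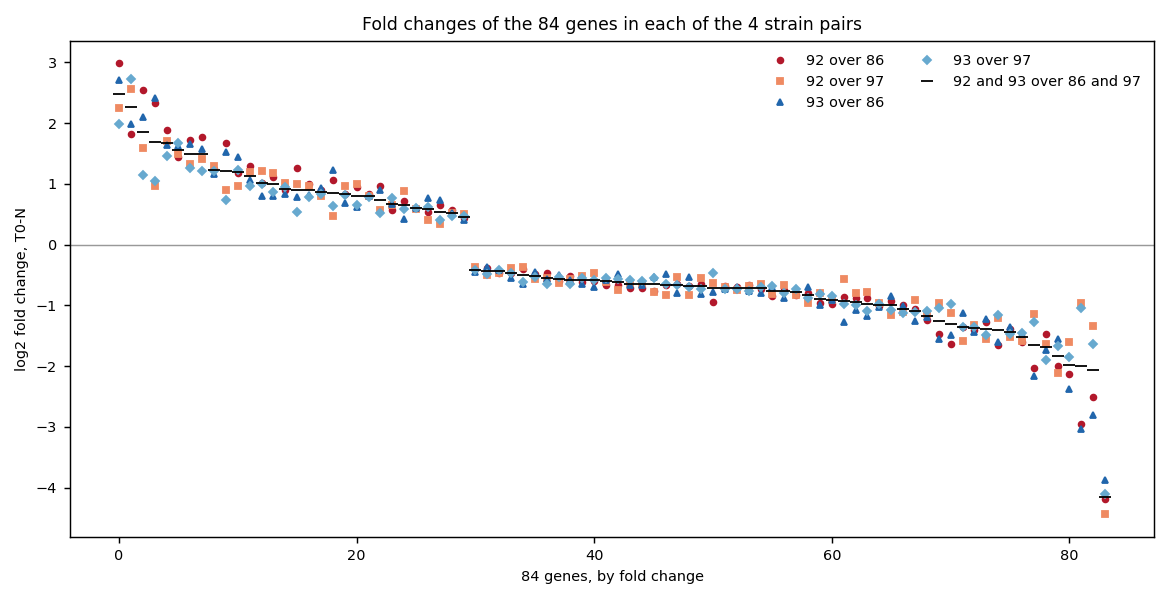
Log2 fold changes at T0-N (y axis) of the 84 kept genes, ordered by fold change (x axis), in each of the 4 strain pairs (coloured symbols) and for strains 92 and 93 over 86 and 97 (black dashes). The 30 higher genes lie above 0 and the 54 lower genes below 0 in every pair, as the rule requires, with the widest scatter between pairs among the largest changes.

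The M-cell mating genes were lower in strains 92 and 93. Of 8 tested, 7 passed the test, all lower, against 5.62% of all genes, and 6 were kept. The list's median log2 fold change was -0.76, against -0.01 over all genes tested. In strains 92 and 93 the level of *mfm1*, which encodes an M-factor precursor, was 7169.7 CPM at the median and ranged from 4198 to 7608 CPM, against 12969 CPM (from 8515 to 14265) in strains 86 and 97. The first value of each such group is the median and the range is that of its 6 libraries. *mfm3*, a second precursor gene, had 2399 CPM (from 1667 to 3343) against 4724 CPM (from 3633 to 5811). For both genes every library of strains 92 and 93 lay below every library of strains 86 and 97, and the log2 fold changes were -0.92 and -0.98 (standard errors 0.11 and 0.0914, n = 6 libraries a side, edgeR adjusted p = 4.29e-05 and 4.74e-06). Since these are bulk samples, fewer responding cells and less RNA per cell cannot be told apart.

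Genes for export, processing and reception of pheromone fell too. *mam1*, the M-factor transporter gene, had 759 CPM (from 614 to 817) in strains 92 and 93, against 1265 CPM (from 1055 to 1478) in strains 86 and 97. The P-factor receptor gene *mam2* stood at 1146 CPM (from 1089.9 to 1403) against 1975 CPM (from 1755 to 2138). *mam4*, whose product methylates the M-factor, had 173 CPM (from 126 to 225) against 291 CPM (from 206 to 344), with overlapping ranges. Of this list *mam3*, the gene of an adhesin that holds mating cells together, changed most, by -1.43 on the log2 scale (standard error 0.11). It had 80.8 CPM (from 73.8 to 153) in strains 92 and 93, against 216 CPM (from 154 to 559.6) in strains 86 and 97, and the highest level of either side was in replicate 3. The P-factor protease gene *sxa2* was called lower (-0.75, edgeR adjusted p = 0.000299) but was not kept, and *mfm2* missed the threshold (-0.51, edgeR adjusted p = 0.0651). Of 4 genes of the P-cell list, *map1*, a MADS-box factor gene, was kept as lower (-0.77). *map2* (0.12), *map3* (-0.09) and *map4* (-0.20) did not pass the test.

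**Figure D2:**
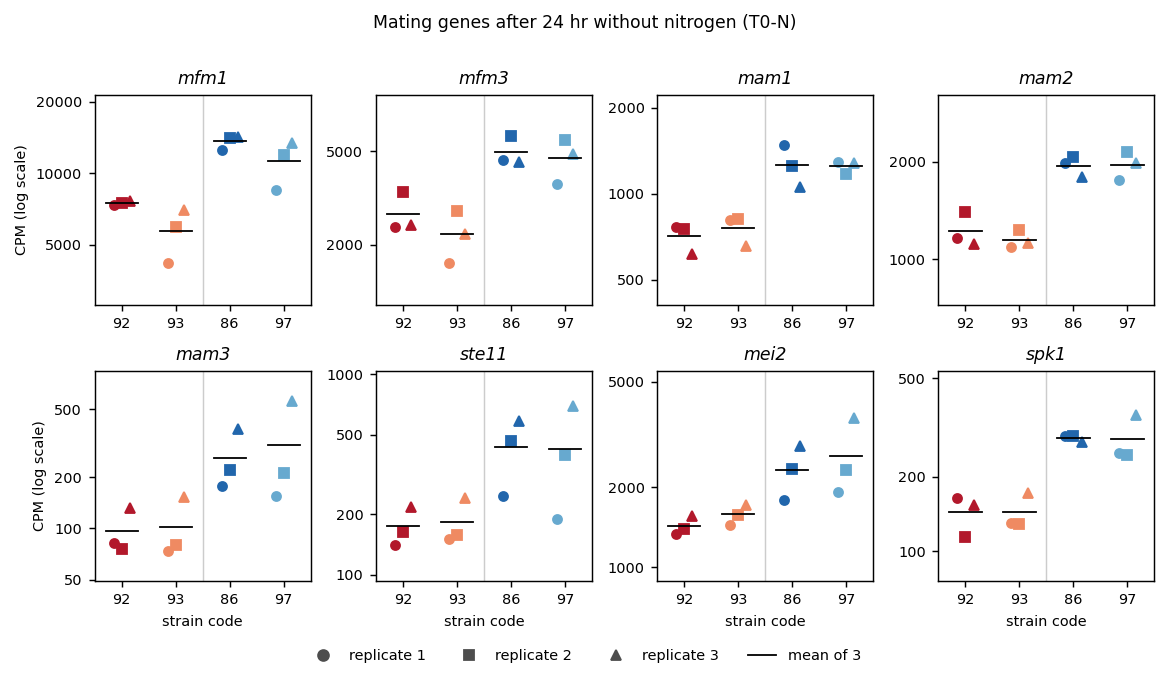
Levels of 8 mating genes at T0-N in CPM (y axis, log scale) for strains 92, 93, 86 and 97 (x axis), with a symbol for each replicate number and a bar for the mean of 3. All 8 genes are lower in strains 92 and 93, and only *ste11* shows an overlap of the sides, where replicate 1 of strain 97 (189.9 CPM) lies below replicate 3 of strains 92 and 93.

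Among 30 tested genes of the pheromone response and sexual differentiation, 15 passed the test, all lower (background 5.62%), and 11 were kept. The median of the list was -0.27. *ste11* itself had 161 CPM (from 140.0 to 240.3) in strains 92 and 93, against 429 CPM (from 189.9 to 694) in strains 86 and 97, a log2 fold change of -1.17 (standard error 0.131). It was lower within each replicate number, and both sides were highest in replicate 3. *mei2*, which encodes the RNA-binding protein that starts meiosis, had 1504 CPM (from 1334 to 1720.2) against 2335 CPM (from 1787 to 3661), with no overlap.

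The kept genes of the signalling cascade were all lower. *gpa1*, the pheromone receptor's Gα subunit, changed by -0.47 and *rgs1*, which ends its signal, by -0.997. *ste6*, the exchange factor of Ras1, changed by -0.76, and *ste7*, needed for conjugation and meiosis, by -0.71. The MAP kinase branch held *ste4* (adaptor, -0.59), *byr1* (MAP kinase kinase, -0.41) and *spk1* (MAP kinase, -0.99). *spk1* had 142 CPM (from 114 to 172) in strains 92 and 93, against 284 CPM (from 245 to 356) in strains 86 and 97, without overlap. *fus1*, the formin of cell fusion, had 66.4 CPM (from 54.3 to 77.3) against 95.4 CPM (from 84.9 to 124). Beyond these lists, *dni2*, a claudin-like gene needed for fusion, changed by -1.69 (standard error 0.112), and *shk2*, a PAK-like kinase gene, by -0.84. *shk2* was chosen after its values were seen.

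The promoters of the lower genes held the Ste11 binding sequence more often than promoters at large. Ste11 binds the TR box, searched here by its core TTCTTTGTT on both strands, from 500 bases before to 50 bases after the RefSeq gene start (550 bases in all). The core occurred in 16 of 50 promoters of kept lower coding genes (32.0%), in 0 of 18 of kept higher coding genes and in 164 of 5105 coding promoters overall (3.21%). Within the lower genes it was found in 10 of 17 genes of the M-cell and pheromone lists (58.8%) and in 6 of the 33 others (18.2%), *map1* counted among the others. A shorter core, TTCTTTG, which is contained in the first, occurred in 23 of the 50 (46.0%) against 18.3% of all coding promoters. These matches are a description of sequence and no measurement of binding. The 12 promoters shown next are a part of these 16, all of kept genes. For each, the core nearest the gene start is printed with 10 bases on each side. The stretches are in the gene's own 5′ to 3′ direction, from the RefSeq genome (ASM294v3). Capitals mark the core, which in *mfm1*, *mfm3*, *ste6* and SPBC146.02 lies on the opposite strand and so reads as its reverse complement.
mfm1 (I:4916926-4916954, plus strand): gggtccgaccAACAAAGAAgtctcagttt
mfm3 (II:700190-700218, plus strand): aggcccaaccAACAAAGAAgtctcagatt
ste11 (II:3983239-3983267, plus strand): aaagttgaatTTCTTTGTTtgattttcat
ste6 (III:1765896-1765924, plus strand): attgttagtaAACAAAGAAattcccaaaa
spk1 (I:3001550-3001578, minus strand): CAAAGAAactTTCTTTGTTattgtaagtt
rgs1 (I:679708-679736, plus strand): atttaatgatTTCTTTGTTtaaaagaaag
mam4 (I:1230321-1230349, minus strand): gagtatgattTTCTTTGTTttacttccct
ste4 (I:1296579-1296607, minus strand): tgagtatgctTTCTTTGTTataaaagtag
ste7 (I:453634-453662, minus strand): attgttgattTTCTTTGTTtgaaaatgga
dni2 (II:1184315-1184343, plus strand): tgtcaaaaatTTCTTTGTTtcaaagtatt
shk2 (I:273069-273097, plus strand): taaatggggtTTCTTTGTTtatacatttg
SPBC146.02 (II:1000778-1000806, plus strand): gtcttccatgAACAAAGAAaccttgtgat
In *spk1* another copy on the opposite strand lies just upstream and its end is visible in the same stretch. The 12 cores shown start between 50 bases (*spk1*) and 180 bases (*ste6*) before the gene start. The other 4 of the 16 are not printed, and their nearest cores start 58 bases (*itr2*) and 338 bases (*ppk33*) before the gene start and 34 bases (*mei2*) and 26 bases (*map1*) after it. *mam1*, *mam2*, *mam3*, *fus1*, *gpa1*, *byr1* and *isp4*, also kept, had no match to the longer core in this window, which says only that these letters are not there.

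In cells growing in rich medium these genes did not differ in a common direction, and after longer starvation they differed more. The 18 kept genes of the M-cell, P-cell and pheromone lists had a median log2 fold change of -0.74 at T0-N. In V25, 16 of them were testable, with a median of 0.22, and 3 were called higher and 3 lower in strains 92 and 93, in a state where 45.2% of all genes differed (22.8% higher, 22.4% lower). At T4D25 all 18 were called lower, with a median of -1.67, against 6.67% of all genes called lower and 13.5% called in either direction. In 17 of the 18 the change was larger than at T0-N, and the exception was *mam3*. At T4D36.5, where 51.5% of genes were called and 26.3% were lower, 17 of 18 were called lower with a median of -1.46, and *map1* was not called. In V36.5 (27.3% of genes called), 17 were testable with a median near 0 (-0.003), with 1 called higher and 1 lower.

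In the T4D25 libraries *mfm1* had 149 CPM (from 95.6 to 189) in strains 92 and 93, against 1783 CPM (from 1580.4 to 1884) in strains 86 and 97, a log2 fold change of -3.64 (standard error 0.13). *mam2* had 54.9 CPM (from 22.5 to 71.1) against 577 CPM (from 279 to 669), a change of -3.40 (standard error 0.113). *mei2* had 257 CPM (from 225 to 434) against 1420.1 CPM (from 1162 to 1740.4), and *ste11* had 90.8 CPM (from 56.7 to 111) against 354 CPM (from 245 to 501). No library of strains 92 and 93 overlapped strains 86 and 97 in any of these 4 genes.

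The difference at T0-N minus that in V25 was tested for each gene with an interaction term, which passed the threshold in 33.3% of the 6023 genes tested. The T0-N part of this test shares its values with the rule. It was -1.63 for *ste11* (standard error 0.23, edgeR adjusted p = 6.52e-06), -1.37 for *mei2* and -1.08 for *ste4*, all 3 of which were called higher in strains 92 and 93 in V25 (0.44, 0.68 and 0.48). For *byr1* the term was -0.09 (edgeR adjusted p = 0.526), and this gene was also lower in V25 (-0.33).

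Beyond the mating genes, the 36 other lower genes had a median of -0.90 at T0-N, -0.62 at T4D25 (29 called, all lower) and -0.47 at T4D36.5 (18 lower, 5 higher), and -0.01 in V25 (9 lower, 6 higher of 31). The 30 higher genes had medians of 0.91 at T0-N and 0.44 at T4D25, where 23 were called higher (background 6.86%) and only *tgp1* lower. At T4D36.5 their median was -0.19, with 8 called higher and 10 lower of 29, and in V25 it was 0.29, with 11 higher and 8 lower of 27. Over all genes, 25.1% were called higher and 26.3% lower at T4D36.5, and 22.8% and 22.4% in V25. At T4D25 6.67% of all genes were called lower.

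**Figure D3:**
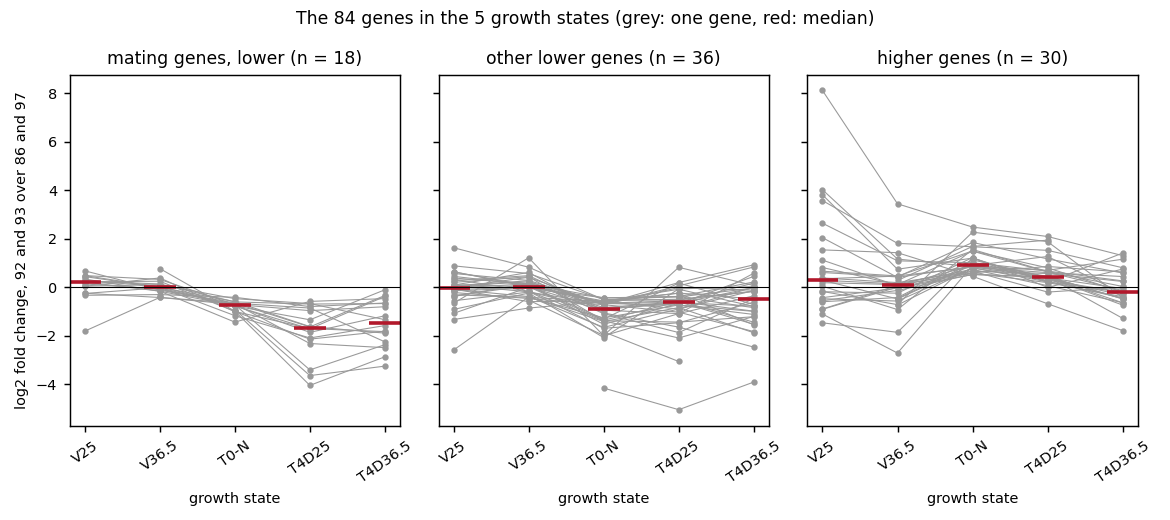
Log2 fold changes of strains 92 and 93 over 86 and 97 (y axis) in the 5 growth states (x axis) for the 18 mating genes, the 36 other lower genes and the 30 higher genes, with a grey line per gene and a red bar for the median. The mating genes have medians of 0.22 in V25, -0.74 at T0-N and -1.67 at T4D25.

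The list of phosphate, thiamine and zinc genes was mixed, and its thiamine members were singled out after their values were seen. Of 16 tested, 7 were lower (43.8%, background 5.62%), 5 higher (31.2%, background 6.33%) and 4 not called, with a median log2 fold change of -0.16. The thiamine members *nmt1*, *thi4* and *thi9* were kept, *thi2*, *bsu1* and *pho4* (a phosphatase gene that thiamine represses) were called lower, and *thi5* was not called (-0.22). The zinc transporter gene *zrt1* was not kept. It averaged 127 CPM in strain 92 and 133 CPM in strain 93, against 969 CPM in strain 86 but 90.6 CPM in strain 97. Only strain 86 was thus above strains 92 and 93 in *zrt1*. Outside the list, *thi201* (a kinase gene of the thiamine pyrimidine branch), SPCC18B5.05c (the same enzyme family) and SPBC530.07c (TENA/THI family) were kept as lower.

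*nmt1*, which makes the thiamine pyrimidine and is the strongly thiamine-repressed gene used for expression vectors, had 4.67, 2.06 and 2.07 CPM in strain 92 and 2.87, 4.41 and 1.34 CPM in strain 93. It had 14.1, 5.67 and 354 CPM in strain 86 and 16.2, 10.5 and 388 CPM in strain 97. The sides did not overlap, and replicate 3 of strains 86 and 97 stood far above their other libraries. The log2 fold change was -4.15 (standard error 0.613), and -1.63 without replicate 3. *thi201* had 18.3 CPM (from 9.83 to 29.5) against 46.3 CPM (from 22.3 to 94.3), a change of -1.38 (standard error 0.128). SPBC530.07c had 32.3 CPM (from 31.2 to 37.8) against 87.1 CPM (from 54.2 to 154), without overlap. At T4D25 *nmt1* had 8.3 CPM (from 2.28 to 14.7) in strains 92 and 93, against 279 CPM (from 55.7 to 741) in strains 86 and 97. In V25 the picture was another: *thi9*, the thiamine transporter gene, was called higher in strains 92 and 93 (1.63), as was *thi201* (0.33), and the interaction terms were -2.15 and -1.73.

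Genes of hexose transport, glycolysis and gluconeogenesis went in both directions. Of 28 tested, 12 were lower (42.9%, background 5.62%), 5 higher (17.9%, background 6.33%) and 11 not called, with a median of -0.14, and *ght4*, *ght5* and *fbp1* were kept. The hexose transporter gene *ght4* had 37.3 CPM (from 31.3 to 42) in strains 92 and 93, against 126 CPM (from 56.4 to 317) in strains 86 and 97, a change of -2.07 (standard error 0.165). Strain 86 was above strain 97 (means 234.8 and 102.8 CPM), and both were above every library of the other side. *ght5*, the high-affinity glucose transporter gene, had 241 CPM (from 116 to 371) against 574 CPM (from 463 to 793). *fbp1*, the gluconeogenic fructose-1,6-bisphosphatase gene that glucose represses, had 23.3 CPM (from 13.7 to 40) against 68.4 CPM (from 29.6 to 119), with an overlap between replicate 1 of strains 92 and 93 and replicate 3 of strain 97.

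Outside the list, the dihydroxyacetone kinase gene *dak2*, which acts in glycerol use, had 34.7 CPM (from 22.8 to 41.9) in strains 92 and 93, against 108 CPM (from 59.4 to 308) in strains 86 and 97, and strain 86 was higher than strain 97. The galactose genes *gal7* (-1.91), *gal10* (-1.86) and *gal1* (-1.53) were called lower but not kept. Of these, *gal7* averaged 3.61 CPM in strain 92 and 24.1 CPM in strain 93, against 40.8 CPM in strain 86 and 30.4 CPM in strain 97. *gal10* averaged 1.75 CPM in strain 92, 16.7 CPM in strain 93, 21.1 CPM in strain 86 and 16.3 CPM in strain 97. *gal1* had 0.519, 0.881 and 1.24 CPM in strain 92, but 13.3, 8.51 and 6.24 CPM in strain 93. Strain 97 had 5.46, 8.55 and 6.31 CPM of *gal1*. In *gal10* and *gal1* strain 93 thus overlapped strain 97, and only strain 92 stood apart. For *gal7* strain 93 (from 21.1 to 27.2 CPM) overlapped strain 97 (from 25.3 to 39.0 CPM) too, but lay below every library of strain 86. The 5 list members called higher, *tdh1* (0.75), *eno101* (0.54), *pdc101* (0.53), *adh1* (0.48) and *gpm1* (0.41), encode enzymes of glycolysis and fermentation and were not kept. All 5 turned negative with library sizes from the spike-ins (-0.43 to -0.095). In the other starved state at 25°C the kept genes parted. *ght5* was lower at T4D25 (-0.84), as were *fbp1* (-0.89) and *dak2* (-1.08), while *ght4* had -0.06 (edgeR adjusted p = 0.659), with 47.4 CPM in strains 92 and 93 and 47.5 CPM in strains 86 and 97.

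**Figure D4:**
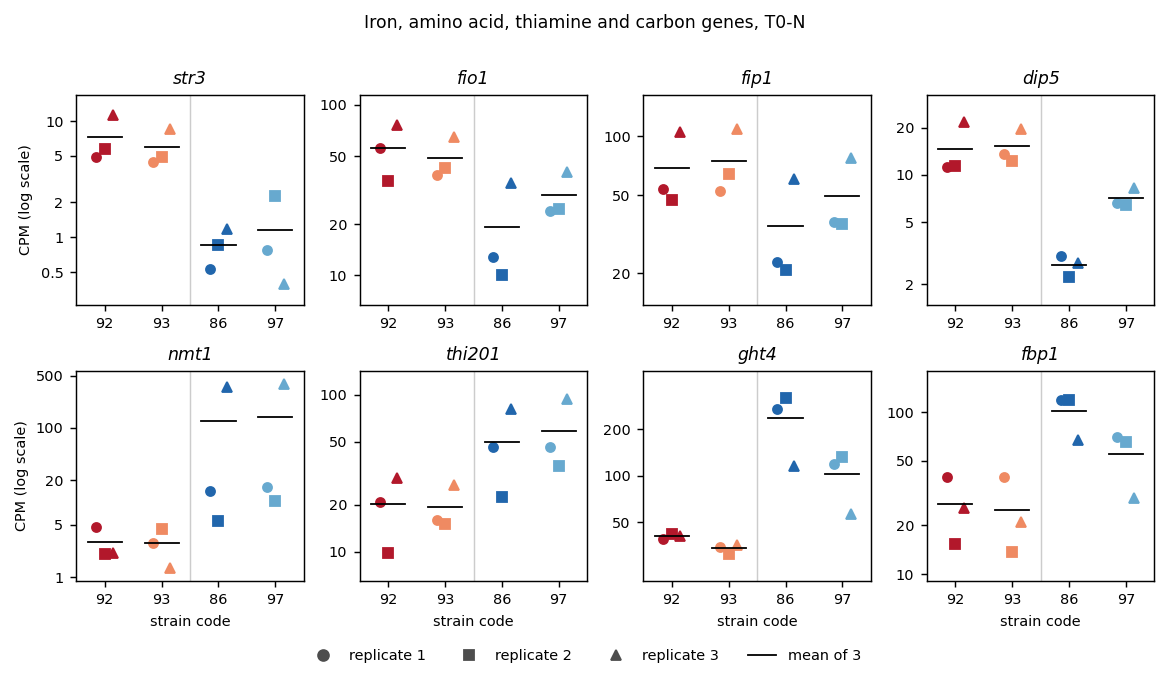
Levels at T0-N in CPM (y axis, log scale) of iron genes (*str3*, *fio1*, *fip1*), *dip5*, thiamine genes (*nmt1*, *thi201*), *ght4* and *fbp1* in strains 92, 93, 86 and 97 (x axis), with a symbol for each replicate number and a bar for the mean of 3. The upper row is higher and the lower row lower in strains 92 and 93, and replicate 3 of strains 86 and 97 reaches 354 and 388 CPM for *nmt1*.

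Some iron uptake genes were higher in strains 92 and 93. Of 17 tested genes of iron and copper acquisition, 6 were higher (35.3%, background 6.33%), 1 was lower (5.88%, background 5.62%) and 10 were not called, with a median log2 fold change of 0.16, and *str3*, *fio1* and *fip1* were kept. With library sizes from the spike-ins 2 were called higher. *str3*, a siderophore-iron transporter gene, had 5.33 CPM (from 4.44 to 11.2) in strains 92 and 93, against 0.82 CPM (from 0.395 to 2.26) in strains 86 and 97. Its log2 fold change was 2.48 (standard error 0.317), with few counts in strains 86 and 97, where 3 counts correspond to between 0.484 and 1.18 CPM. *fio1* and *fip1*, the multicopper oxidase and the permease of reductive iron uptake, form a divergent pair on chromosome I with 319 bases between them (ASM294v2, 4235080 to 4237874 and 4232998 to 4234760). *fio1* had 49.4 CPM (from 35.7 to 76.3) against 24.1 CPM (from 10.1 to 40.6), and *fip1* had 58.8 CPM (from 47.4 to 108) against 36 CPM (from 20.8 to 77). In both genes the sides overlapped and replicate 3 was highest in every strain, while within each replicate number strains 92 and 93 were higher.

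The ferric reductase gene *frp1* (1.95) and the siderophore transporter gene *str1* (1.19) were called higher but missed the rule in at least 1 strain pair. Outside the list, *isu1*, a scaffold gene of iron-sulfur cluster assembly, was kept as higher (0.66), which turned to -0.17 with library sizes from the spike-ins. The repressor of these genes, *fep1* (-0.21, edgeR adjusted p = 0.0776), and *php4* (0.16, edgeR adjusted p = 0.376) were not called. The GATA sequences AGATAA or TGATAA, of the kind that Fep1 binds, occurred in 4 of the 6 promoters of iron and copper genes called higher and in 66.8% of all coding promoters. In V25 the iron and copper list had 6 of 17 genes higher (background 22.8%) and 4 lower (background 22.4%), with a median of 0.06. There *fio1* differed by 3.81, *fip1* by 4.02 and *str1* by 4.27, all higher in strains 92 and 93, while *frp1* differed by 1.75, with an interaction term of 0.22 (edgeR adjusted p = 0.797). *str3* had 30.5 CPM (from 4.58 to 180.2) there, against 0.118 CPM (from 0 to 0.963) in strains 86 and 97. In the same state *fio1* had 127 CPM (from 58.7 to 459) in strains 92 and 93, against 13.7 CPM (from 8.53 to 22.6) in strains 86 and 97. The interaction term was -2.62 for *fio1* and -3.26 for *fip1* (edgeR adjusted p = 2.22e-06 and 1.37e-06). At T4D25 *fio1* had 56.7 CPM (from 49.4 to 65.4) in strains 92 and 93, against 51.4 CPM (from 35.4 to 58.8) in strains 86 and 97. There *fip1* had 71.6 against 53.7 CPM and *isu1* 173 against 177 CPM, and the sides overlapped in all of these. *str3* still stood apart at T4D25, with 3.3 CPM (from 2.47 to 4.93) against 0.685 CPM (from 0 to 1.88).

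Transporters of amino acids and peptides went in both directions. Of 22 tested genes of nitrogen transport and assimilation, 7 were lower (31.8%, background 5.62%), 2 higher (9.09%, background 6.33%) and 13 not called. *ptr2*, the peptide transporter gene, changed by -1.06 (standard error 0.121), *isp4*, an oligopeptide transporter gene strongly induced by starvation, by -0.65 and the amino acid permease gene *per1* by -0.56. *isp4* had 1749 CPM (from 1191 to 2278) in strains 92 and 93, against 2920.0 CPM (from 1863 to 3661) in strains 86 and 97. The amino acid transporter gene *agp3* (0.74, but -0.09 with library sizes from the spike-ins) and, outside the list, *dip5* (1.68) were higher. *dip5* had 12.9 CPM (from 11.2 to 21.6) against 4.74 CPM (from 2.23 to 8.29), without overlap. The ammonium transporter genes *amt1* (-0.10), *amt2* (0.10) and *amt3* (0.42) and the GATA factor gene *gaf1* (0.07) did not pass the test.

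Genes of the G1 to S phase were among the lower ones: of 39 tested genes of the cell cycle list, 10 were lower (25.6%, background 5.62%), 1 was higher (2.56%, background 6.33%) and 28 were not called. *cig2*, the S-phase cyclin gene, had 57.6 CPM (from 49.1 to 74.3) in strains 92 and 93, against 109.8 CPM (from 83.5 to 135) in strains 86 and 97. The divergent histone genes *hht1* (H3) and *hhf1* (H4) changed by -0.71 and -0.69. *hht1* had 122 CPM (from 119.9 to 128) against 196 CPM (from 170.3 to 247), a far lower level than in V25, where it had 889 CPM in strains 92 and 93 and 1189.9 CPM in strains 86 and 97. *rum1*, the CDK inhibitor gene that holds starved cells in G1, changed by -0.44. The kept higher genes included *pmp20* (0.89) and *srx1* (0.87), a thioredoxin-related chaperone gene and the sulfiredoxin gene, and the meiotic septin gene *spn5* (1.01). *pmp20* had 1002 CPM (from 825 to 1108) against 522 CPM (from 409 to 638), and was lower in strains 92 and 93 in V25 (-0.89).

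Of 5 pairs of kept transcripts that lay opposite each other on the DNA, 3 moved in the same direction and 2 in opposite directions. The 2 opposite pairs are described here. The libraries kept strand: of 185 antisense rows inside a coding gene, 183 had counts together with their gene, at a median of 0.0583 of its counts per base. *fus1* (chromosome I, 4813111 to 4817790) was lower, while *fus1-antisense-1*, which in the annotation of the table lies wholly inside it on the other strand, over 3205 bases, was higher by 2.27 (standard error 0.385). The antisense transcript had 4.42 CPM (from 2.34 to 5.8) in strains 92 and 93, against 0.777 CPM (from 0 to 2.36) in strains 86 and 97, at the level of a few counts per library in strains 86 and 97, and the sides overlapped in 1 library each. *ght4* (chromosome II, 155751 to 159570) and the non-coding RNA SPNCRNA.1319 on its other strand formed a second such pair. SPNCRNA.1319 had 16.2 CPM (from 10.3 to 19.9) against 4.03 CPM (from 2.36 to 7.26), a change of 1.85 (standard error 0.174).

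At T4D25 *fus1-antisense-1* (1.88) and SPNCRNA.1319 (1.17) were still called higher, *fus1* was called lower (-0.69) and *ght4* was not called. In V25 neither of the 2 non-coding RNAs was called (-0.17 and 0.61). In V36.5 *fus1-antisense-1* went the other way, without overlap. It had 46.2 CPM (from 40.4 to 58) in strains 92 and 93, against 80.3 CPM (from 65.7 to 88.2) in strains 86 and 97. SPNCRNA.1319 had 6.66 CPM (from 2.79 to 11.2) there, against 4.4 CPM (from 3.35 to 6.99), with overlapping sides. Over the 84 genes there were 59 distinct pairs of a kept gene with a tested gene on its opposite strand. In 5 of these both members were kept, so that the rule itself chose them, 2 pairs in opposite directions and 3 in the same. Of the other 54 partners, 6 were called in the opposite direction and 8 in the same direction, 26% in all, against 11.9% of all genes called in either direction. Antisense partners of *cig2* (0.71), *mfm3* (0.52), *rgs1* (0.79) and SPBC146.02 (1.32) were among those called higher. Over all 446 tested antisense transcripts, 39 were higher (8.74%, background 6.33%) and 6 lower (1.35%, background 5.62%), while with library sizes from the spike-ins their median was -0.68, with 4 called higher and 259 lower.

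**Figure D5:**
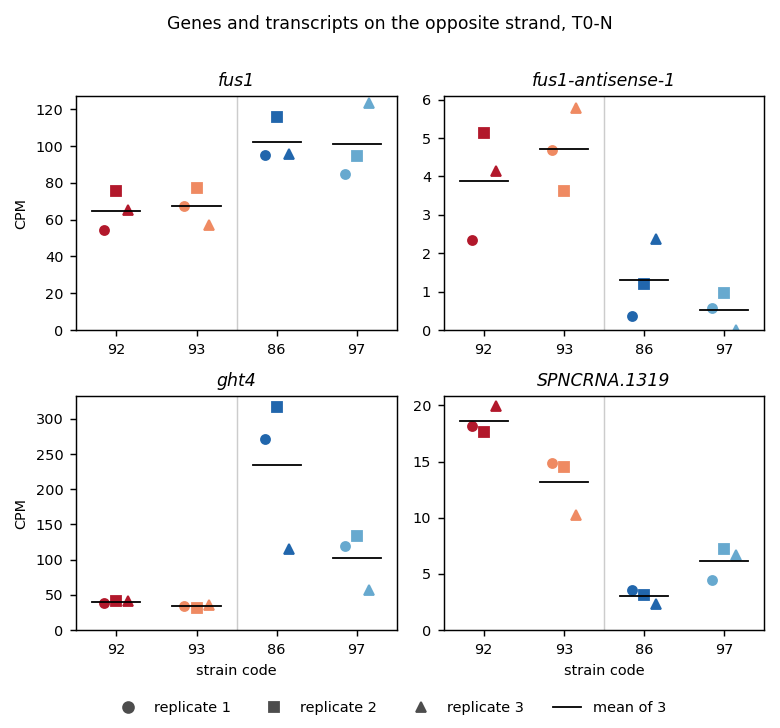
Levels at T0-N in CPM (y axis, linear from 0) of *fus1* and *ght4* (left) and of the transcripts on their opposite strands (right) in strains 92, 93, 86 and 97 (x axis), with a symbol for each replicate number and a bar for the mean of 3. The genes are lower and the transcripts opposite them higher in strains 92 and 93, where *fus1-antisense-1* reaches at most 5.8 CPM.

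Several kept genes were neighbours. Among the 84, 22 lay within 2 kb of another, in 12 pairs, of which 10 moved in the same direction and 5 overlapped. These pairs included *str3* with the antisense transcript next to it, *fip1* with *fio1*, *hht1* with *hhf1*, *isp4* with SPNCRNA.1443, *dni2* with *rtt10-antisense-1*, and *dip5* with SPCC777.03c, a cysteine desulfurase family gene that overlaps it over 1784 bases on the other strand. SPCC777.03c had 90.1 CPM (from 68 to 119.9) in strains 92 and 93, against 34.1 CPM (from 21.6 to 44.4) in strains 86 and 97. A stretch of 14.3 kb on chromosome I (1851495 to 1865819) held 7 tested genes, of which SPAC1399.01c (a transporter gene), *mam3*, *scm3* (the chaperone gene of the centromeric histone) and *cwp1* were kept, all lower. Another stretch, of 20.6 kb on chromosome III (1584118 to 1604750), held 10 tested genes, of which 4 were kept in both directions. There SPCC162.02c was lower, while SPCC13B11.03c, SPCC777.03c and *dip5* were higher. Reads of overlapping genes on the same strand could not be divided here, and 21 of the 84 overlapped such a gene.

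The remaining kept genes had varied roles. Among the lower ones *ppk33*, a protein kinase gene, had 48.4 CPM (from 34.8 to 59.5) in strains 92 and 93, against 107 CPM (from 83.7 to 119) in strains 86 and 97. SPAC1399.01c had 167 CPM (from 153 to 199) against 459.8 CPM (from 282 to 513), and neither gene's sides overlapped. *dni2* had 10.7 CPM (from 8.3 to 14.5) against 35 CPM (from 26.4 to 46.2). These 3 were also called lower at T4D25 (-1.86, -0.59 and -1.46). *mug14* changed by -1.99 and had 6.21 CPM (from 4.1 to 8.83) against 22.8 CPM (from 7.87 to 54), with overlapping sides, and was not called at T4D25 (0.82, edgeR adjusted p = 0.096). Cell wall and division genes were represented by *mpg1* (mannose activation, -0.43), *gas2* (glucan remodelling, -0.58) and *mid2* (septin ring organisation, -0.72). Transporter genes were represented by *itr2* (inositol, -0.58) and SPAC1039.01 (amino acids, -0.65). SPCC162.02c (-0.66), SPAC11H11.03c (-0.51), SPAPB15E9.02c (-1.53) and the transcript *mal1-antisense-1* (-1.26) made up the rest of the lower genes.

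Among the higher genes, *dus1*, which encodes a tRNA dihydrouridine synthase, had 157 CPM (from 149 to 182) in strains 92 and 93, against 90.8 CPM (from 85.4 to 105) in strains 86 and 97. *aes1* had 122 CPM (from 92.4 to 163) against 67.9 CPM (from 44.4 to 75.5). Neither gene's sides overlapped, and both were called higher at T4D25 (0.61 and 1.27). SPCC13B11.03c, annotated as a hydroxyacylglutathione hydrolase, had 19.1 CPM (from 14.3 to 21.3) against 6.39 CPM (from 4.33 to 8.55). *caf5* (a spermine family transporter gene, 0.60), SPAC6G9.01c (0.66) and SPBC3B8.06 (0.58) were the other coding genes. The non-coding RNA SPNCRNA.1606 had 89.3 CPM (from 56.9 to 105) against 27.7 CPM (from 23.5 to 46.8), a change of 1.56 (standard error 0.152), while the gene on its opposite strand, SPBPB7E8.01, was not called (0.04, edgeR adjusted p = 0.802). In V36.5 SPNCRNA.1606 went the other way, with 35.7 CPM (from 29.7 to 38.7) against 58.3 CPM (from 44.2 to 107). The rest were SPNCRNA.863 (1.20), SPNCRNA.1236 (0.80), SPNCRNA.1116 (0.52), SPBC15D4.05-antisense-1 (0.996) and *ayr1-antisense-1* (0.92).

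Relative to the bulk of the genes, though not with library sizes from the spike-ins, genes near chromosome ends and small RNAs were more often higher than lower, with few kept members. Within 100 kb of the ends of chromosomes I and II, 31 of 75 tested genes were higher (41.3%, background 6.33%) and 10 lower (13.3%, background 5.62%), with a median of 0.32, and 4 higher genes and 1 lower gene were kept. The higher ones were *str3*, SPAC1F8.04c-antisense-1, *aes1* and the pseudogene SPAC977.13c, and the lower one was *dak2*. In the SPAC869 cluster 7 of 12 genes were higher (58.3%) and 1 lower (8.33%). Of 60 tested tRNA genes 27 were called, all higher (median 0.77), and of 32 small nucleolar RNAs 17 were called, all higher (median 0.45), and SPATRNAGLU.03 and sno530 were kept. With library sizes from the spike-ins the medians were -0.52 near the chromosome ends (6 called higher, 35 lower), -0.39 in the SPAC869 cluster, -0.07 for tRNA genes (1 called higher, 4 lower) and -0.37 for small nucleolar RNAs. *var1* of the mitochondrial genome was kept as lower (-1.30), with 18.1 CPM (from 3.39 to 50.4) in strains 92 and 93, against 57.7 CPM (from 4.68 to 102) in strains 86 and 97, and the sides overlapped. The spike-in share, 6.16 to 11% in strain 92, 2.9 to 6.51% in strain 93 and 2.72 to 3.98% in strains 86 and 97, was also higher on that side, and its part in these values was not tested.

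Genes of the pathways mutated in the study were called no more often than all genes tested (11.9% in either direction). *mis4* had 112 CPM (from 86 to 117) in strains 92 and 93, against 132 CPM (from 106 to 159) in strains 86 and 97. It was called lower (-0.31, standard error 0.0845, edgeR adjusted p = 0.0254) but was not kept, and lost its call without replicate 2 or replicate 3 (edgeR adjusted p = 0.0983 and 0.249). In V25 it was higher in strains 92 and 93 (0.32). *mip1* had 177 CPM (from 143 to 189.7) against 169.6 CPM (from 137 to 200.2), with a change of 0.04 (standard error 0.0683, edgeR adjusted p = 0.786). Since both alleles are point mutations, these levels do not check the labels. Of 29 tested genes of TORC1 and its regulators, only *cek1* was called, at -0.27 (3.45% lower, background 5.62%). Of 20 genes of cohesin and its loader, *eso1* was higher (0.32, but -0.51 with library sizes from the spike-ins) and *mis4* lower. This was 5% higher (background 6.33%) and 5% lower (background 5.62%), near the share over all genes. Of 27 autophagy genes *atg12* was higher (0.35, but -0.49 with those sizes), a share of 3.7% (background 6.33%). Among 139 cytosolic ribosomal protein genes 15 were called, all higher (10.8%, background 6.33%). With those sizes 130 of the 139 were called, all lower.

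Just inside the rule's threshold were *tgp1*, *fus1-antisense-1* and SPAC1039.07c, whose largest adjusted p over the 4 pairs was 0.0489, 0.0459 and 0.0455. Just outside were *str1*, *pho842* and *ght1*, with 0.0525, 0.0532 and 0.0540. *ght1*, a hexose transporter gene, had 6.91 CPM (from 3.57 to 9.35) in strains 92 and 93, against 16.2 CPM (from 12.1 to 41) in strains 86 and 97, without overlap.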

How the data were processed

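The authors sequenced rRNA-depleted, strand-specific libraries as paired reads of 58 bases and, per the labels, aligned them with STAR 2.7.10a to ASM294v2 and counted them with featureCounts 1.5.1. The deposited table holds raw counts per gene and library, a gene length column and 92 spike-in rows, which were left out of library sizes and tests. The 12 T0-N libraries were tested with the edgeR 4.0.16 quasi-likelihood F test in R 4.3.3 (filterByExpr, TMM) with the replicate number as a block and Benjamini-Hochberg adjustment over all genes tested, for the sides and for each strain pair. The standard error is the fold change divided by the square root of F. Each other growth state was fitted the same way, and the interaction of side and state was fitted over T0-N and V25 together. DESeq2 1.42.0 was an alternative.

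The block was part of the rule. Libraries with the same number deviated together from their strain means (mean r 0.549 over 18 pairs, lowest 0.365), against a mean r of -0.272 for different numbers. Replicate libraries of a strain differed by more than sampling noise. Gene totals of 2180751 to 6569486 make low counts imprecise. Reads carry no molecular identifiers, so counting limits cover counting error only.

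Names came from RefSeq (ASM294v3), where 6846 of 7014 rows matched by locus tag, and chromosome lengths fit the table's coordinates. The members and lists were chosen with earlier results of these data known. Genes named were, by rule, the 12 largest kept changes in each direction, up to 4 members per list by smallest p, *mis4*, *mip1* and 3 genes on each side of the threshold. Other genes named were chosen after their values were seen.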

Additional observations from a re-analysis of the deposited data

Results flagged for a closer look

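In 6 of 242 groups of 6 T0-N libraries a library stood apart from the rest of its side (Dixon's test at the 95% level, which chance passes in about 1 in 20 groups). SPAC1F8.04c-antisense-1 had 24.9 CPM in replicate 3 of strain 92, with the next library of strains 92 and 93 at 15.6 CPM. SPNCRNA.1606 had 46.8 CPM in replicate 3 of strain 86, with the next of strains 86 and 97 at 30.1 CPM. *sxa2* had 33 CPM in replicate 2 of strain 86 (next 45.5 CPM) and *hhf1* 364 CPM in replicate 1 of strain 97 (next 442 CPM). *aes1* had 44.4 CPM in replicate 1 of strain 86 (next 64.2 CPM) and *map3* 15.4 CPM in replicate 3 of strain 97 (next 10.5 CPM).

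For 17 genes the sides differed in opposite directions at T0-N and in V25, with a call in both states and an interaction past the threshold (edgeR, adjusted p below 0.05). Their T0-N values are those the rule used. The difference at T0-N minus that in V25 was negative, on the log2 scale, for *thi9* (-2.15), SPAC1399.01c (-2.02), *thi201* (-1.73), *ste11* (-1.63), SPAC11H11.03c (-1.39), *mei2* (-1.37), SPAC1039.01 (-1.23), *ste4* (-1.08) and *rum1* (-0.82). It was positive for SPNCRNA.863 (2.67), *aes1* (2.00), *pmp20* (1.78), sno530 (1.72), SPBC3B8.06 (1.48), SPNCRNA.1236 (1.27), SPAC1039.07c (1.08) and SPNCRNA.1116 (0.94). The edgeR adjusted p of these terms ran from 1.95e-11 for *thi9* to 0.000259 for *mei2*. Only kept genes were searched. Of those testable in V25, 8 of 27 higher ones were called lower there, and 9 of 47 lower ones were called higher. Over all genes tested in V25, 22.4% were called lower and 22.8% higher, and 33.3% of all genes passed the interaction threshold.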

How the results depend on the processing

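Relative to the median of all genes, the 84 genes kept their direction under the 10 alternatives and the 3 fits without a replicate, wherever they could be tested (78 of them where each library had to hold 10 counts). These fits reuse the libraries that chose the genes and so do not test the direction. Without the replicate block, 111 genes were called at T0-N (50 higher, 61 lower), 4 were kept (2 higher, 2 lower), and the pairs 92-86, 92-97, 93-86, 93-97, 93-92 and 97-86 gave 60, 26, 33, 4, 5 and 8. The lists then gave 5 lower pheromone, 2 lower phosphate, thiamine and zinc, 7 lower hexose and 2 higher iron genes. The block-free counts were 826 in V36.5 (3 kept lower genes called lower), 211 in T4D25 and 1028 for the interaction. A likelihood ratio test with tagwise dispersion kept 54 higher genes and called 398 (93-86), 278 (93-97), 22 (93-92) and 119 (97-86). DESeq2 called 83 for 97-86, and a minimum of 10 counts gave 4 for 93-92. SPBPB7E8.01, not called, turned to -0.00078 without the replicate block.

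Library sizes from the spike-ins gave 5226 calls (16 higher, 5210 lower) and 34 kept genes (0 higher, 34 lower). The pairs in the same order gave 5350, 5515, 60, 59, 4353 and 12, and the lists 29 pheromone, 14 phosphate, thiamine and zinc and 21 hexose genes lower and 2 iron genes higher. The sign turned for *mip1* (-0.79), *isu1* (-0.17), *agp3* (-0.091), *tgp1* (-0.38), SPAC1039.07c (-0.29), *pho842* (-0.31), *eso1* (-0.51), *atg12* (-0.49), *atg8* (-0.57), *dus1* (-0.010), SPNCRNA.1236 (-0.041), SPAC977.13c (-0.044), SPAC6G9.01c (-0.17), *caf5* (-0.23), SPBC3B8.06 (-0.24), SPNCRNA.1116 (-0.31), *pdc101* (-0.31), *gpm1* (-0.43), *eno101* (-0.31), *tdh1* (-0.095), *adh1* (-0.34), *php4* (-0.66), *amt2* (-0.73), *amt3* (-0.40), *gaf1* (-0.76), *map2* (-0.71) and SPBPB7E8.01 (-0.79). Of these, 11 are among the 84. The causes were not tested.

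Leaving out each replicate number in turn gave 243 to 561 calls (124 to 298 higher, 119 to 263 lower) and 33 to 77 kept genes (9 to 28 higher, 20 to 49 lower). The pairs gave 130 to 383 (92-86), 137 to 379 (92-97), 85 to 273 (93-86), 51 to 163 (93-97) and 15 to 40 (97-86). The counts were 764 to 1607 in V36.5 (3 to 6 kept lower genes called lower), 211 to 859 in T4D25 (15 to 23 kept higher genes called higher), 1992 to 2888 in T4D36.5, and 1261 to 1724 for the interaction. These fits have fewer libraries. The sign of *mip1* turned without replicate 1 (-0.004) and 2 (-0.018) and was 0.14 without replicate 3. Without replicate 1 it also turned for *gaf1* (-0.0073, otherwise 0.085 and 0.14), *map2* (-0.0566, otherwise 0.11 and 0.31) and SPBPB7E8.01 (-0.067, otherwise 0.068 and 0.13), none of them called. Replicate 3 was the shallowest, and genes near 1 CPM, such as *str3* in strains 86 and 97, rest on few counts.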
